A study of Mus musculus with 36 samples.

Results

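Potassium channel genes are the 84 genes on the Affymetrix Mouse 430_2 array whose symbol starts with Kcn, of 18193 genes that have a probe set naming 1 gene symbol. They were read from 167 of 34945 such probe sets, 1 probe set a gene, the one with the highest mean over 36 arrays. A probe set is a group of short probes to 1 transcript. Of the 84 genes, 81 encode channel subunits and 3 are RNA genes named after a channel gene (Kcnq1ot1, Kcnmb4os1 and Kcnmb4os2). The arrays measured RNA of the ventral tegmental area (VTA), the nucleus accumbens (NAC) and the prefrontal cortex (PFC) of male mice of 20 to 26 g, of a strain that the labels spell C57B1/6J. All mice had gone through conditioned place preference, in which an injection is tied to a compartment of the test box. On days 3 to 10 every mouse got saline on alternate days. On the days between, the modafinil group got modafinil, a wakefulness-promoting drug that inhibits the dopamine transporter, at 65 mg/kg, and the vehicle group got saline again. Tissue came from brains removed on day 11 right after testing, with the last injection 24 h in the past, by punches of 1 mm diameter through slices of 100 µm. Each group had 5 arrays in VTA and in NAC and 8 in PFC, for modafinil and for vehicle alike. Nothing in the labels states that different arrays came from different animals; p-values therefore reflect array-to-array spread alone, part of which may be technical.

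Potassium channels let potassium leave the cell and so return the membrane towards rest, set its resting level and shape the pauses between spikes. Voltage-gated (Kv) channels are built from pore subunits, with silent subunits that form no channel alone and with cytoplasmic helper subunits. Inward rectifiers pass potassium best near rest; some are opened by G proteins downstream of dopamine and GABA receptors, and some clear potassium into glia. Two-pore channels carry the leak current, and calcium- and sodium-activated channels follow the ions that enter during firing.

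Of the 84 genes, 57 were bright enough to be tested in all 4 comparisons (mean at or above the 40th percentile of the arrays fitted), 10 in some and 17 in none. The 17 were Kcna3, Kcne1, Kcne2, Kcne3, Kcnh7, Kcnj1, Kcnj2, Kcnj13, Kcnj14, Kcnj15, Kcnk5, Kcnk16, Kcnmb1, Kcnmb4os1, Kcnn3, Kcnq1 and Kcnv2. Levels are RMA values on the log2 scale, on which a difference of 1 is a doubling. Levels of different probe sets are not comparable with each other, and PFC levels are not set against those of VTA or NAC, since the medians of the PFC arrays lay higher. Within groups, arrays correlated on average at 0.987 to 0.995. No array file repeated another. The cell content of the punches is given as the mean log2 level of lists of marker genes. The dopamine neuron list stood at 8.10 to 9.69 in vehicle VTA against 6.29 to 6.43 in vehicle NAC, and the striatal projection neuron list at 10.13 to 11.19 in vehicle NAC against 7.79 to 8.12 in vehicle VTA. Vehicle VTA array 4 stood apart in its choroid plexus and ependyma list, at 7.38 with the highest of the other vehicle VTA arrays at 6.25. Modafinil PFC array 3 stood apart in the striatal list, at 10.05 with the other modafinil PFC arrays at 8.66 to 8.88.

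In vehicle mice, potassium channel genes differed between NAC and VTA in both directions. Of 62 tested, 20 were higher and 21 lower in NAC than in VTA (limma, Benjamini-Hochberg adjusted p under 0.05 over 27022 probe sets). The 41 calls, and the counts by class below, are to be read against 56.5% of all probe sets called (28.7% higher and 27.8% lower). The median difference of the 62 was -0.035 against 0.007 for all probe sets. Differences were often large: 16 of 62 passed the threshold with a log2 difference above 1 in size, against 7.58% of all probe sets. The filter took the mean of both regions, so some genes entered through the region where they were high. Among them were Kcnj4 and Kcng1, too dim for the modafinil comparison in VTA, and Kcng4 and Kcnk10, too dim for that in NAC. All arrays of one region lay beyond all of the other for 16 genes above and 17 below, against 41.4% of all probe sets. In bulk tissue, fewer cells of a type and less RNA per cell cannot be told apart.

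**Figure D1:**
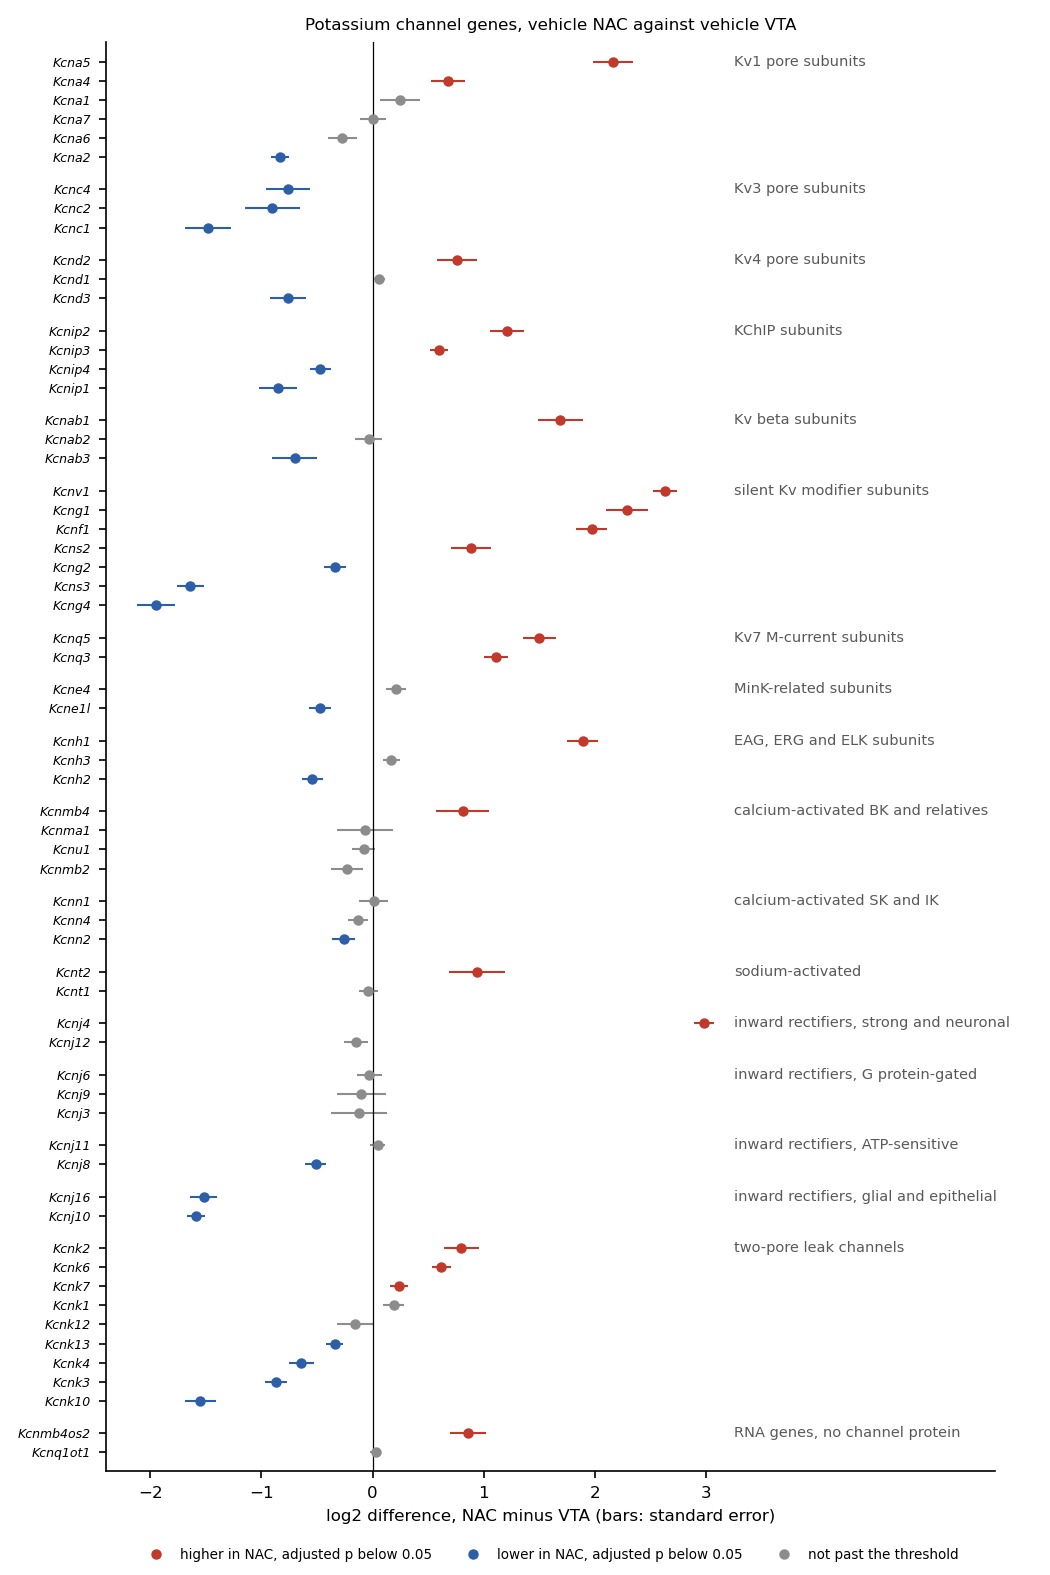
Log2 difference of vehicle NAC minus vehicle VTA (x axis) with its standard error for the 62 tested potassium channel genes, grouped by class; red is higher and blue lower in NAC past the threshold, grey is neither. Kcnj4 and Kcnv1 lie farthest to the right at 2.98 and 2.63, Kcng4 farthest to the left at -1.95, and all 3 Kv3 genes lie left of 0.

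Kcnj4, which encodes a strong inward rectifier that holds the membrane near rest, had the largest difference on the 1 probe set used per gene. Its levels were 8.99, 8.87, 9.05, 9.19 and 9.03 in the 5 vehicle NAC arrays, against 6.28, 6.09, 5.87, 6.12 and 5.86 in the 5 vehicle VTA arrays. The groups did not overlap, and the spread within each was small against the distance between them. The difference was 2.98 ± 0.09 (SE), or 7.90-fold (adjusted p = 6.48e-10). Kcnj12, of the same family, was at 7.08 ± 0.16 in NAC and 7.23 ± 0.21 in VTA (SD, n = 5 each), a difference of -0.15 that did not pass the threshold. The 250 bases before a RefSeq start of Kcnj4 are shown because it had the largest difference on the probe set used. They lie at chr15:79505242-79505491 on the minus strand of GRCm38.p6 (RefSeq), and capitals mark the Sp1-type GC box (GGGCGG, read on either strand), which was found 3 times. The gene spans chr15:79480226-79512511, so this start lies inside the gene and not at its outer end.
Kcnj4: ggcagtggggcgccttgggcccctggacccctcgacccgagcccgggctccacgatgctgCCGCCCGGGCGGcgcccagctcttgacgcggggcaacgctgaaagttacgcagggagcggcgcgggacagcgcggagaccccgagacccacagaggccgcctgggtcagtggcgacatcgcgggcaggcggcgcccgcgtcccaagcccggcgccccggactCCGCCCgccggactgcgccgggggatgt

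Silent Kv subunits change the gating of the Kv pores they join. Of those tested, 7 of 7 passed the threshold between the regions, 4 higher and 3 lower in NAC, against 56.5% of all probe sets. Of these 7, Kcng1 and Kcng4 passed the filter through the region where they were high. Kcns1 and Kcnv2 were too dim to be tested here. Kcnv1 was at 9.09, 9.67, 9.04, 9.25 and 9.10 in NAC against 6.70, 6.55, 6.51, 6.55 and 6.67 in VTA, a difference of 2.63 (SE 0.11, adjusted p = 5.79e-09). Its 2 other tested probe sets gave 3.24 and 3.71, above the difference of Kcnj4, and both passed the threshold. Kcng1 (2.29), Kcnf1 (1.97) and Kcns2 (0.89) were also higher in NAC. In the other direction, Kcng4 was at 5.29, 5.81, 5.71, 5.64 and 5.38 in NAC, against 7.07, 7.99, 7.40, 7.86 and 7.25 in VTA. That is a difference of -1.95 (SE 0.17, adjusted p = 1.92e-06), and the NAC arrays all lay below the VTA arrays. Kcns3 differed by -1.64 (SE 0.12), with NAC arrays at 6.52 to 6.74 and VTA arrays at 7.89 to 8.63. Kcng2 differed by -0.34 (SE 0.10, adjusted p = 0.00889).

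The Kv3 pore subunits, which close fast and let neurons fire at high rates, were all lower in NAC on the probe set used (3 of 3). Kcnc2 was at 9.34, 10.04, 9.43, 9.17 and 8.30 in NAC, against 10.03, 10.55, 10.06, 9.91 and 10.21 in VTA. NAC array 2 lay above VTA arrays 1 and 4, so the groups overlapped, and the difference was -0.90 (SE 0.25, adjusted p = 0.00934). Kcnc4 differed by -0.76 (SE 0.20), and its other tested probe set gave -0.14 and did not pass. Kcnc1 differed by -1.48 (SE 0.21, adjusted p = 7.32e-05), but its 3 other tested probe sets gave -0.24 to 0.25, and 1 of them passed the threshold in the opposite direction. Among the called genes with another tested probe set, 18 of 19 had all others of the same sign and Kcnc1 was the exception. For 15 of the 19, 1 or more of the others also passed the threshold in the same direction.

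Both tested Kv7 genes, whose channels carry the M-current that muscarinic receptors close, were higher in NAC. Kcnq3 was at 10.27, 10.11, 10.48, 10.56 and 10.70 in NAC against 9.45, 9.24, 9.27, 9.15 and 9.45 in VTA. The groups did not overlap, and the difference was 1.11 (SE 0.11, adjusted p = 4.3e-06). Kcnq5 differed by 1.50 (SE 0.15). Kcnh1, an EAG-type Kv gene, was higher in NAC by 1.89 (SE 0.14) and Kcnh2, of the ERG type that repolarises heart muscle too, was lower (-0.54, SE 0.094). The third tested gene of that class, Kcnh3, differed by 0.17 on the probe set used (adjusted p = 0.0932), while its 2 other tested probe sets gave 1.52 and 1.64 and both passed the threshold.

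The Kv1 and Kv4 pore genes split by gene. Kcna5 was higher in NAC by 2.16 (SE 0.18), with NAC arrays at 8.47 to 9.41 and VTA arrays at 6.52 to 7.36, and Kcna4 by 0.68 (SE 0.15). Kcna2, a subunit of axonal channels, was lower in NAC (-0.83, SE 0.083). Kcna1, its usual partner in axons, had 10.92 to 11.13 in NAC against 10.00 to 11.24 in VTA and did not pass the threshold (0.25, adjusted p = 0.26). Kcna6 differed by -0.27 (adjusted p = 0.102) and passed with the mean of its probe sets (-0.43, adjusted p = 0.00467), with array weights (0.0162), and without vehicle NAC array 2 (0.0117) or vehicle VTA array 4 (0.0477). Kcna7 differed by 0.0032. Of the Kv4 genes, whose A-type current delays firing, Kcnd2 was higher in NAC by 0.76 (SE 0.18) and Kcnd3 lower (-0.76, SE 0.16). The other tested probe set of Kcnd3 gave -0.018. With the mean of all 4 of its probe sets, untested ones included, the difference was -0.20 (adjusted p = 0.145). Kcnd1 differed by 0.06 (adjusted p = 0.371).

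The helper subunits of these channels split in the same manner. Of the KChIP genes, which encode calcium-binding partners of Kv4 channels, Kcnip2 (1.21) and Kcnip3 (0.60) were higher and Kcnip1 (-0.85) and Kcnip4 (-0.47) lower in NAC, so that all 4 passed the threshold. Kcnip2 was at 9.32, 8.94, 9.30, 9.53 and 9.95 in NAC against 8.20, 8.05, 8.09, 8.26 and 8.40 in VTA, and its second probe set gave 3.43. Kcnab1, whose product speeds the inactivation of Kv1 channels, was at 10.64, 10.15, 10.76, 11.02 and 11.49 in NAC against 9.05, 8.98, 9.07, 9.10 and 9.43 in VTA. Its difference was 1.69 (SE 0.20, adjusted p = 1.83e-05), and its second probe set gave 2.07. Kcnab3 was lower in NAC (-0.70) and Kcnab2 differed by -0.033 (adjusted p = 0.826). Kcne1l, of the MinK-related class of small accessory subunits, was lower in NAC (-0.47, SE 0.10, adjusted p = 0.00165). Kcne4, of the same class, differed by 0.21 (adjusted p = 0.0761) and passed with array weights (0.0489) or without vehicle NAC array 5 (0.0493).

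**Figure D2:**
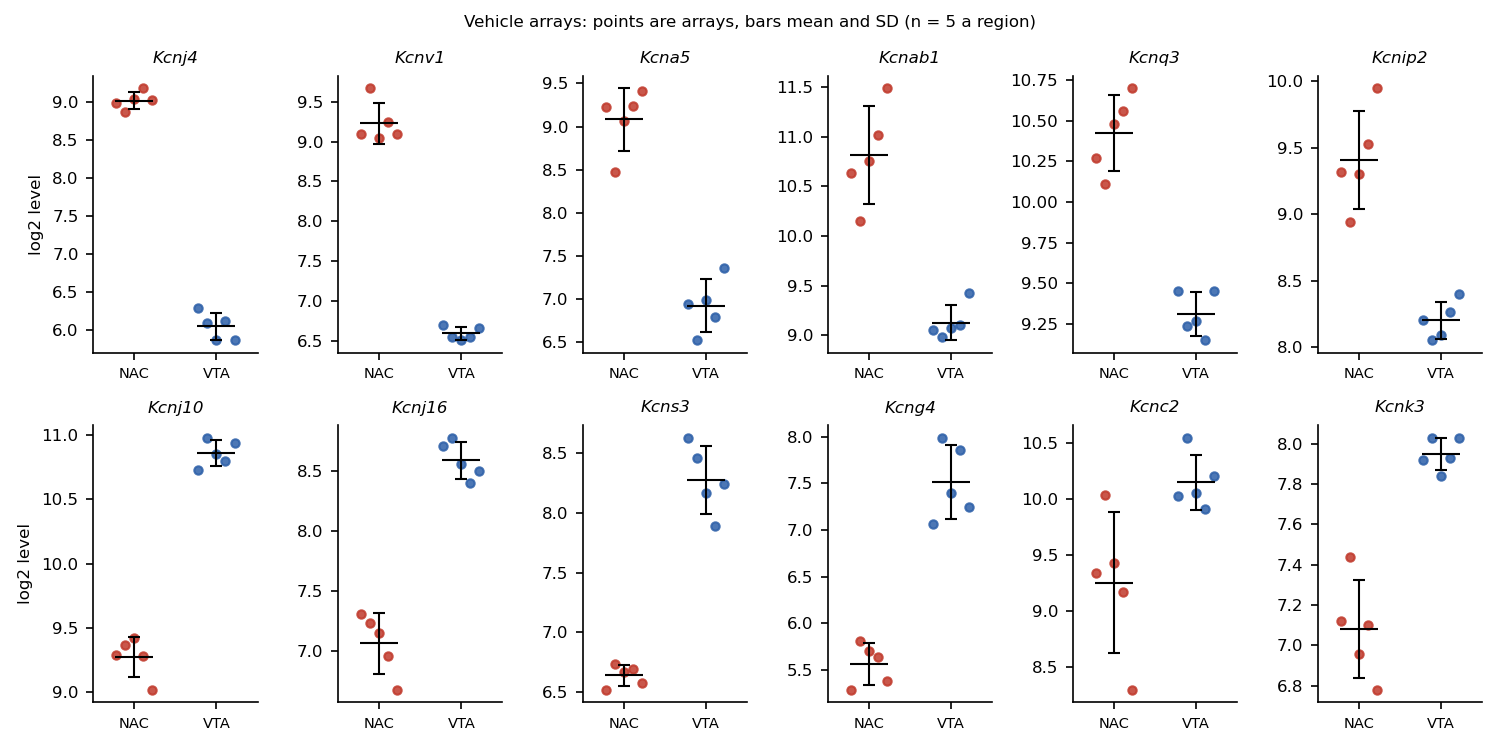
Log2 levels of 12 potassium channel genes in each vehicle array, NAC left and VTA right, with the mean and SD of 5 arrays; each panel has its own y axis, which does not start at 0. The upper row holds genes higher in NAC (Kcnj4 at 9.02 against 6.04) and the lower row genes lower in NAC (Kcnj10 at 9.27 against 10.86); Kcnc2 is the panel in which the regions overlap.

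Kcnj10 and Kcnj16, whose products form the potassium-clearing rectifier of astrocytes and other glia, were both lower in NAC. Kcnj10 was at 9.29, 9.37, 9.42, 9.28 and 9.02 in NAC, against 10.73, 10.98, 10.85, 10.80 and 10.94 in VTA, with no overlap. The difference was -1.59 (SE 0.082, 3.00-fold, adjusted p = 3.08e-08). Kcnj16 was at 6.68 to 7.31 in NAC against 8.40 to 8.78 in VTA, a difference of -1.52 (SE 0.12). The astrocyte list was also lower in NAC, at 9.19 to 9.51 against 10.11 to 10.42 in VTA, with 10 of 12 genes lower and 1 higher, and the oligodendrocyte list was at 9.82 to 10.38 against 10.68 to 11.10, with 12 of 13 lower. Their part in the differences of Kcnj10 and Kcnj16 was not tested. Beside Kcnj10 on chromosome 1, 11887 bases away, lies Kcnj9, a G protein-gated gene, which differed by -0.10 (SE 0.22) and did not pass the threshold. The windows of 250 bases before both starts are shown as those of neighbouring genes of 1 family with unlike differences: Kcnj10 at chr1:172340960-172341209 on the plus strand, and Kcnj9 at chr1:172329323-172329572 on the minus strand (GRCm38.p6, RefSeq). Capitals mark the GC box in Kcnj10 (2 matches), and in Kcnj9 a TATAAA match and a match to the gamma-activated site TTCNNNGAA.
Kcnj10: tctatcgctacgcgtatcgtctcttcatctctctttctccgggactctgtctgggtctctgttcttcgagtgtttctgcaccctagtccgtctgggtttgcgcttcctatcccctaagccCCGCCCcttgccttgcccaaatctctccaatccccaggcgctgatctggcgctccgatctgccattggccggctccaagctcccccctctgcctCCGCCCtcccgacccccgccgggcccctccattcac
Kcnj9: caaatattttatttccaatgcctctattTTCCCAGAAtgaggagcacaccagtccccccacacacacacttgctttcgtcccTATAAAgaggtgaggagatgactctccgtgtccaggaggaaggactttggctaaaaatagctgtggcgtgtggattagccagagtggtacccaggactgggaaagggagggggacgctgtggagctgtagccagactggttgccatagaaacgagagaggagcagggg

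The windows before the starts were searched on both strands for 5 short motifs. Such a start is not always the outer end of its gene, as for Kcnj4 and Kcnj12. Of 64 potassium channel genes with a RefSeq window of 250 bases before the start, 60.9% held GGGCGG on either strand in at least 1 window, against 35.4% of 27025 genes with a window. The share was 73.3% in the 15 such genes higher in NAC and 64.7% in the 17 lower in NAC. The potassium channel genes had more windows per gene (89 windows for 64 genes, 23 for the 15 and 28 for the 17, against 32851 for 27025), which raises such a share. Counted over windows, 44.9% of the 89 held GGGCGG, against 32.7% of all windows. TATAAA was in 4.69% of the 64 against 14.3% of all genes, CACGTG in 6.25% against 6.86%, and TTCNNNGAA, the gamma-activated site of interferon-responsive genes, in 10.9% against 8.13%. TGACGTCA, the cyclic AMP response element, was in 0 of the 64, against 1.77% of all genes; this says only that these letters are not in those windows. No motif contains another, and a match is a description of the sequence and not evidence of binding.

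The G protein-gated rectifiers, which slow neurons when dopamine D2 or GABA-B receptors are active, showed no difference past the threshold between the regions (0 of 3 tested). Kcnj3 was at 8.99, 9.48, 9.13, 8.99 and 7.83 in NAC against 8.82, 8.84, 9.18, 8.91 and 9.29 in VTA (-0.12, SE 0.25). Its NAC arrays ran wider than its VTA arrays and covered their whole range. Kcnj9 was at 7.61 to 9.00 in NAC against 8.05 to 8.77 in VTA, and Kcnj6 at 6.28 to 6.91 against 6.44 to 6.68 (-0.028, SE 0.11). Kcnj5 was not bright enough to be tested here. Of the ATP-sensitive rectifiers, which close when the cell is well supplied with energy, Kcnj8 was lower in NAC (-0.51, SE 0.095) and Kcnj11 differed by 0.048 (adjusted p = 0.566). With the mean of its probe sets the difference of Kcnj11 was 0.26, past the threshold (adjusted p = 0.0198). Kcnj8 is known in vessel wall cells, and the endothelial and mural list was at 8.30 to 8.41 in NAC against 8.63 to 8.86 in VTA, with 10 of 12 genes lower; its part was not tested.

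Of 9 tested two-pore leak genes, 3 were higher and 4 lower in NAC. Kcnk10, of the mechanically gated group, was at 5.64, 6.40, 5.88, 5.76 and 5.50 in NAC against 7.24, 7.46, 7.33, 7.60 and 7.30 in VTA (-1.55, SE 0.14). Its close relative Kcnk2 went the other way, at 9.91 ± 0.25 in NAC against 9.11 ± 0.34 in VTA (SD, n = 5 each), a difference of 0.80 (SE 0.16). The acid-sensitive leak gene Kcnk3 was lower in NAC (-0.87, SE 0.10), with NAC arrays at 6.78 to 7.44 and VTA arrays at 7.84 to 8.03. Kcnk4 (-0.64) and Kcnk13 (-0.34) were lower, and Kcnk6 (0.62) and Kcnk7 (0.24) higher. Kcnk1 (0.19) and Kcnk12 (-0.16) did not pass. Kcnk1 passed without vehicle VTA array 2 (0.24, adjusted p = 0.0372), and its other tested probe set gave -0.17. The call of Kcnk7 was lost without vehicle NAC array 2 or 4 (adjusted p = 0.0518 and 0.0588). It was also lost with quantile normalization (0.16, adjusted p = 0.103).

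Of the 9 tested genes of calcium- and sodium-activated channels and their relatives (here Kcnu1), 3 passed the threshold. Kcnt2, a sodium-activated channel gene, was higher in NAC by 0.94 (SE 0.25, adjusted p = 0.00733), and Kcnmb4, the neuronal accessory subunit of the large-conductance calcium-activated channel, by 0.81 (SE 0.24, adjusted p = 0.0112). Kcnmb4os2, an RNA gene that overlaps Kcnmb4 on chromosome 10 in the RefSeq annotation, was higher by 0.86 (SE 0.16); whether its probes tell the 2 transcripts apart was not tested. Kcnma1, the pore gene of that channel, did not pass the threshold (-0.066, SE 0.25). It was at 9.14 to 9.61 in NAC, against 9.13, 9.05, 9.08, 10.55 and 9.30 in VTA. VTA array 4 was the high one, and without it the difference was 0.22 (adjusted p = 0.0805). One of the 4 other tested probe sets of Kcnma1 passed the threshold as higher in NAC, and they ranged from 0.042 to 1.47. Kcnt1 differed by -0.037 on the probe set used, while its 2 others gave 0.29 and 0.54 and both passed the threshold. Kcnn2, of the small-conductance class that sets the pause after a spike, differed by -0.26 (SE 0.10, adjusted p = 0.0403). That call was lost without any 1 of 5 arrays (vehicle VTA 2, 4 or 5, or vehicle NAC 1 or 4). It was also lost with quantile normalization (-0.24, adjusted p = 0.0595). Kcnmb2 (-0.23), Kcnu1 (-0.08), Kcnn4 (-0.13) and Kcnn1 (0.01) did not pass on the probe set used. The other tested probe set of Kcnmb2 (-0.54) and that of Kcnn1 (0.19) did pass.

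Arrays of NAC differed from each other in the striatal list. It was highest in modafinil NAC array 2 (11.15) and vehicle NAC array 5 (11.19), which had the lowest cortical excitatory list of their groups (7.94 in modafinil array 2 and 8.16 in vehicle array 5). Of the 62 genes, 22 had their lowest level of the group in both of these arrays, among them Kcnj3, Kcnj9, Kcnc1, Kcnc2, Kcnc4 and Kcnk3. Another 10 had their highest level in both, among them Kcnab1, Kcnd2, Kcnip2 and Kcna4. Kcnj3 was at 7.79 in modafinil array 2, with the other modafinil NAC arrays at 9.08 to 10.14, and at 7.83 in vehicle array 5, with the other vehicle NAC arrays at 8.99 to 9.48. These arrays were chosen after their values were seen, and the part of tissue content in the levels was not tested. The same counts were not taken over all probe sets, so they do not set potassium channel genes apart from other genes.

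**Figure D3:**
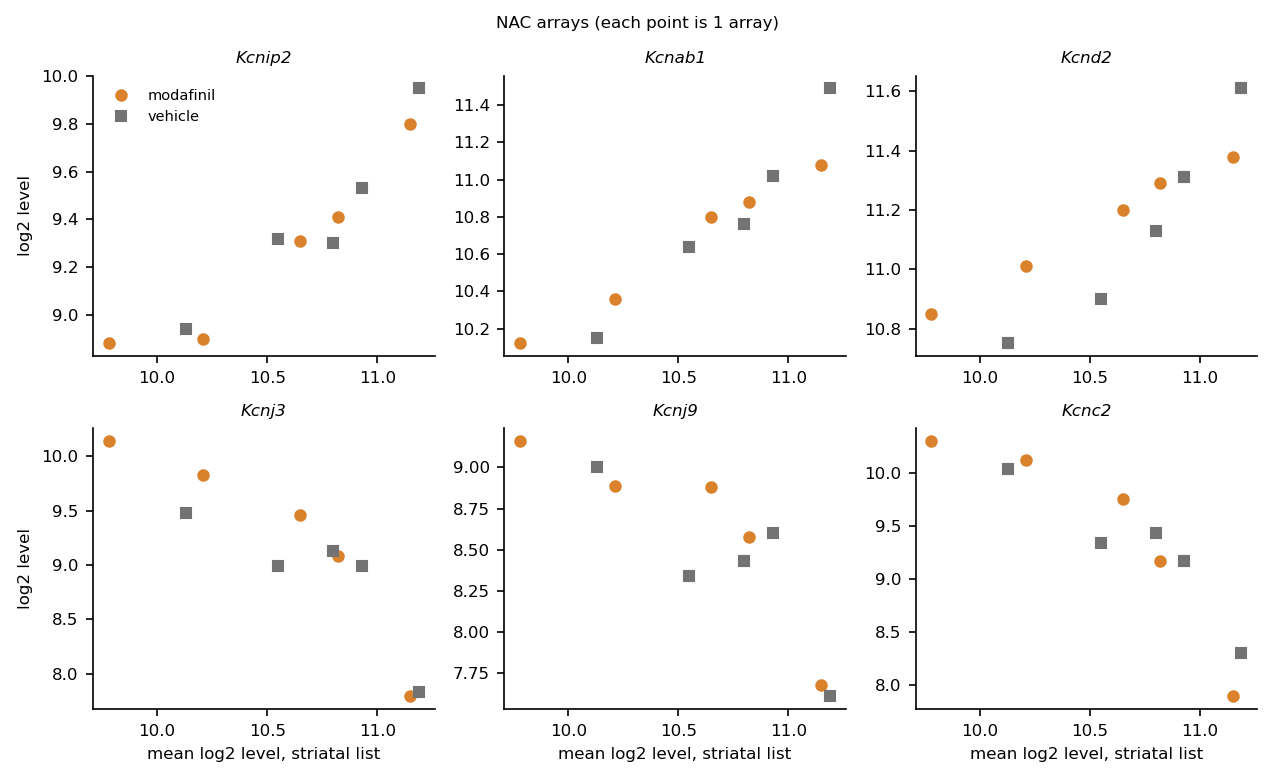
Log2 levels of 6 potassium channel genes (y axis, own scale in each panel) against the mean log2 level of the striatal projection neuron list (x axis) in the 5 modafinil (circles) and 5 vehicle (squares) NAC arrays. Kcnip2, Kcnab1 and Kcnd2 are highest and Kcnj3, Kcnj9 and Kcnc2 lowest in the arrays at the right, at list levels of 11.15 and 11.19.

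Genes of the proteins that potassium channels work with were also examined between the regions. Their counts are to be read against the 56.5% of all probe sets called. Of the clustering and axonal partners, 4 of 10 tested were higher and 2 lower in NAC. Dlg1 (0.81), Dlg2 (0.81) and Dlg4 (0.38), which encode scaffolds that anchor Kv1 channels and rectifiers, were higher, as was Adam22 (0.24), and Lgi3 (-0.61) and Cntn2 (-0.35) were lower. Of the GIRK regulators, 2 of 4 tested were higher: Gnb5, which encodes the beta subunit that pairs with Rgs7, by 1.34 (SE 0.12), and Rgs7 by 0.21 (SE 0.078). Both sodium pump partners that passed were lower (Atp1b2 at -1.78 and Fxyd7 at -0.58, of 3 tested), as were Abcc9 (-0.96), the sulfonylurea receptor that pairs with Kcnj8, 1 of 2 tested, and Slc12a2 (-1.03), a chloride-coupled transporter, 1 of 2 tested. Neither Kv4 auxiliary gene passed, and Hcn3 (-0.23) was the 1 of 2 tested HCN genes that did. None of the 3 BK gamma genes on the array was tested here. The calls of Rgs7 and Fxyd7 were each lost without any 1 of 6 of the 10 arrays, and that of Hcn3 without any 1 of 8, with adjusted p up to 0.097 for Rgs7, 0.0829 for Fxyd7 and 0.0904 for Hcn3. With the replicate block Rgs7 (0.0768) and Fxyd7 (0.0564) also missed the threshold, as did Rgs7 with array weights (0.0593). The other partner calls between the regions were kept without each array.

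In VTA, modafinil mice had no potassium channel gene past the threshold on the probe set used (0 of 62). Of all probe sets, 0.259% passed (70 of 27022 in limma with Benjamini-Hochberg adjustment). The other tested probe set of Kcna4 did pass, as higher with modafinil (0.51), while the one used gave 0.23. The counts that follow are of the probe set used per gene. At an unadjusted p under 0.05 there were 20 of 62, 12 higher and 8 lower, against 21.1% of all probe sets, with 6.84% higher and 14.2% lower. The median difference of the 62 was 0.047 and that of all probe sets -0.047. All modafinil arrays lay above all vehicle arrays for Kcne4 and Kcnq3 and below them for Kcng4, 3 of 62 genes against 5.74% of all probe sets.

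On the probe sets used, the smallest p belonged to Kcnj9, the G protein-gated rectifier gene. It was at 9.22, 8.69, 9.26, 9.14 and 9.10 in modafinil VTA against 8.45, 8.05, 8.54, 8.77 and 8.64 in vehicle VTA. Modafinil array 2 alone reached into the vehicle range, and the difference was 0.59 (SE 0.14, adjusted p = 0.064). It did pass with quantile normalization (0.0448), with array weights (0.0242) and with the mean of its probe sets (0.0416), so the call turns on the setting. Over its 20 alternatives the adjusted p ran between 0.0242 and 0.554. Its 2 other tested probe sets gave 0.16 and 0.64. The other tested genes of this class stood above 0 too but did not pass: Kcnj3 was at 9.17 to 9.86 in modafinil VTA against 8.82 to 9.29 in vehicle VTA (0.35, adjusted p = 0.187), Kcnj6 differed by 0.078 and Kcnj5 by 0.10.

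Kcne4, which encodes a small subunit that dampens Kv currents, was at 7.57, 7.11, 7.42, 6.84 and 6.81 in modafinil VTA against 6.61, 6.71, 6.63, 6.47 and 6.68 in vehicle VTA (0.53, SE 0.14, adjusted p = 0.0779). Kcnmb4 was at 9.53, 8.98, 9.08, 9.07 and 8.91 against 8.27, 7.74, 8.33, 9.08 and 8.63 in vehicle VTA (0.70, SE 0.20, adjusted p = 0.0999). Kcnq3 was at 10.32, 9.47, 9.79, 9.65 and 9.60 against 9.45, 9.24, 9.27, 9.15 and 9.45 in vehicle VTA (0.45, SE 0.14, adjusted p = 0.109). Modafinil array 1 was the highest of its group for Kcne4, Kcnmb4 and Kcnq3, and the groups overlapped for Kcnmb4. Kcnf1 (0.64, adjusted p = 0.107) and Kcnab1 (0.41, adjusted p = 0.107) were the next by p. In a fit of all 36 arrays, in which the spread of every region is shared, Kcne4, Kcnmb4, Kcnq3, Kcnf1 and Kcnj12 passed the threshold, with adjusted p between 0.0155 and 0.0302.

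Among genes with lower levels, Kcng4 was at 6.71, 7.00, 7.04, 6.58 and 6.87 in modafinil VTA against 7.07, 7.99, 7.40, 7.86 and 7.25 in vehicle VTA. The groups did not overlap, although their nearest arrays lay close together, and the difference was -0.68 (SE 0.17, adjusted p = 0.073). The next by p were Kcnj16 (-0.26, adjusted p = 0.15), Kcns3 (-0.39, adjusted p = 0.171), Kcnu1 (-0.24, adjusted p = 0.194) and Kcnc4 (-0.32, adjusted p = 0.198). Kcns3 was at 7.66 to 8.33 in modafinil VTA against 7.89 to 8.63 in vehicle VTA, and Kcnc4 at 8.65 to 9.24 against 9.13 to 9.75.

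**Figure D4:**
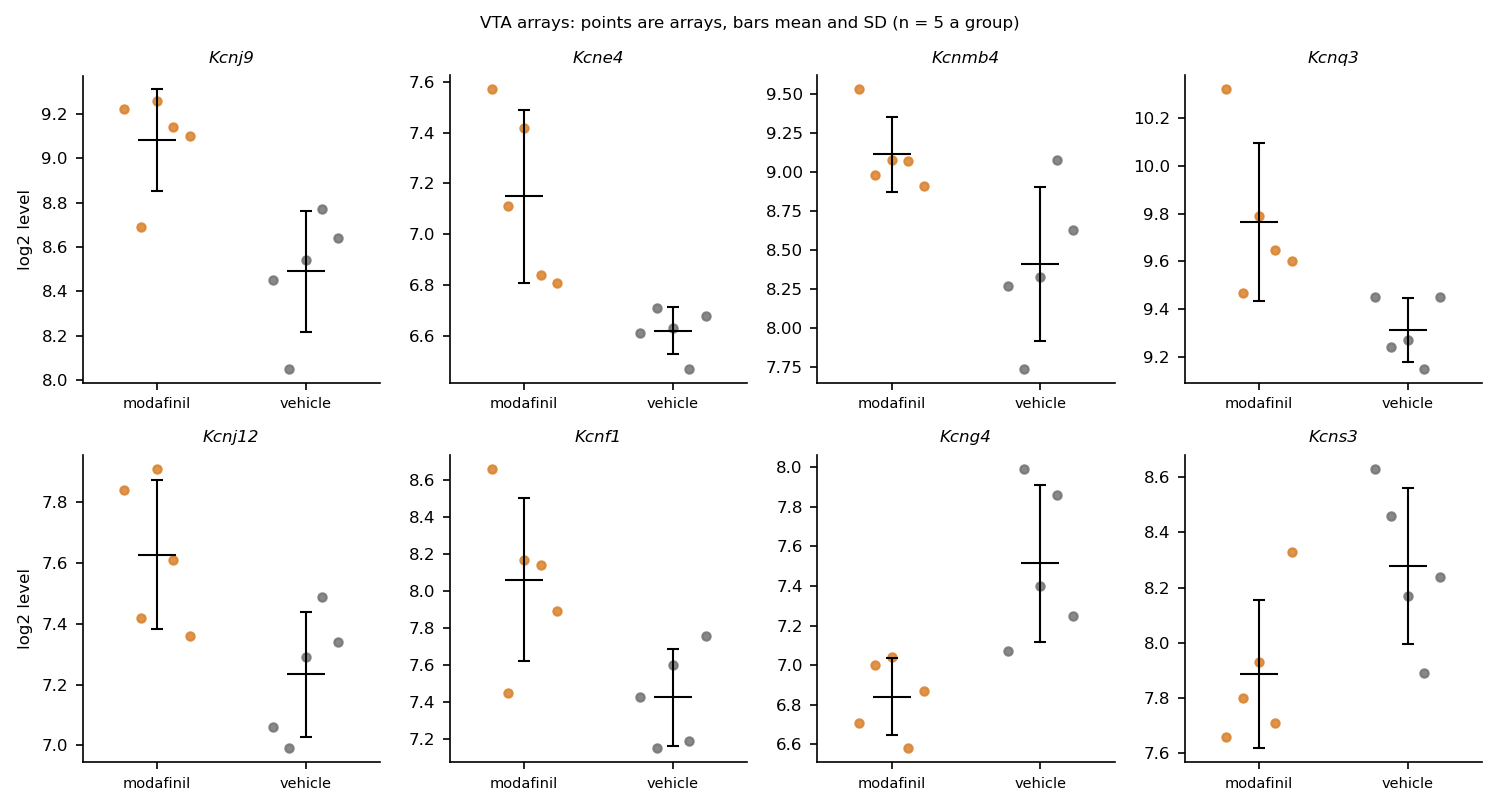
Log2 levels of 8 potassium channel genes in each VTA array, modafinil left and vehicle right, with the mean and SD of 5 arrays; each panel has its own y axis, which does not start at 0. The groups do not overlap in the panels of Kcne4, Kcnq3 and Kcng4, and none of the 8 genes passed the threshold.

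Marker lists of the same VTA arrays were read beside these values. The dopamine neuron list was at 7.26 to 8.63 in modafinil VTA against 8.10 to 9.69 in vehicle VTA, with 17 of 17 tested genes below 0. The thalamic list was at 9.76 to 10.57 against 8.58 to 9.77, with 9 of 10 above 0. The oligodendrocyte list was at 10.68 to 10.79 against 10.68 to 11.10, with 13 of 13 below 0 (median -0.19), and the choroid plexus and ependyma list at 6.06 to 6.19 against 6.16 to 7.38, with 4 of 5 below 0 (median -0.53). No gene of these 4 lists passed the threshold, and none of the other 6 lists had all its tested genes on 1 side of 0. Among those 6, the microglia list had 8 of 10 above 0. These counts are to be read against 36.2% of all probe sets above 0 in VTA. Modafinil array 1 had the lowest dopamine and the highest thalamic list of its group. With the level of the dopamine list as a covariate the differences were 0.45 for Kcnj9, 0.38 for Kcne4, 0.25 for Kcnmb4, 0.11 for Kcnj12, -0.83 for Kcng4 and 0.086 for Kcns3. In that fit 0 of 62 genes and 0 of 27022 probe sets passed, and 0 of 62 genes had passed without the covariate. The list itself ran lower in modafinil VTA, so list level and treatment cannot be fully told apart there.

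In NAC, modafinil mice had 0 of 62 potassium channel genes past the threshold, as did 0% of all probe sets (0 of 27022 in limma; 3.23% at an unadjusted p under 0.05). At that level Kcnab2 and Kcnj12 were the 2 of 62. Kcnab2, a Kv beta gene, was at 9.59, 9.52, 9.59, 9.76 and 9.65 in modafinil NAC against 9.22, 9.59, 9.45, 9.47 and 9.30 in vehicle NAC (0.21, SE 0.082, unadjusted p = 0.0227). Kcnj12 was at 6.66, 6.93, 6.74, 6.90 and 7.02 in modafinil NAC against 7.17, 6.87, 6.95, 7.15 and 7.27 in vehicle NAC (-0.23, SE 0.10, unadjusted p = 0.0319). Both pairs of groups overlapped. The genes next by p, Kcnj6 (0.25), Kcna1 (0.15), Kcnj8 (0.13) and Kcnk1 (0.18) above 0 and Kcne1l (-0.22), Kcnd3 (-0.15), Kcng1 (-0.24) and Kcnk7 (-0.10) below it, all had adjusted p = 1.0. Kcnj3 differed by 0.38 with an SE of 0.40, the widest of the G protein-gated genes named here.

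In PFC, with 8 arrays a group, 0 of 62 genes passed, where 0.0518% of all probe sets did (14 of 27022 in limma). At an unadjusted p under 0.05 there were 9 of 62, 3 higher and 6 lower, against 11.8% of all probe sets, with 3.63% higher and 8.15% lower. The smallest p was that of Kcns2, a silent Kv subunit gene, at 9.42, 9.53 and 9.64 (lowest, median and highest) in modafinil PFC against 9.58, 9.75 and 9.82 in vehicle PFC. The difference was -0.20 (SE 0.046, adjusted p = 0.121), and with array weights it was -0.21 (adjusted p = 0.035), past the threshold. Kcnh2 was at 8.52, 8.71 and 8.86 in modafinil PFC against 8.79, 8.87 and 9.33 in vehicle PFC (-0.23, adjusted p = 0.284). Kcnj12 (-0.20), Kcnu1 (-0.20) and Kcnh1 (-0.17) were next below 0, with adjusted p of 0.329 to 0.39. Above 0 were Kcne4 (0.24), Kcnk7 (0.16), Kcnh3 (0.11), Kcnip3 (0.15) and Kcna7 (0.12), with adjusted p of 0.411 to 0.461. In the PFC arrays the oligodendrocyte list was at 9.15 to 10.11 in modafinil mice against 8.90 to 9.57 in vehicle mice, with 13 of 13 genes above 0, and the striatal list at 8.66 to 10.05 against 8.63 to 8.87, with 14 of 15 above 0. No gene of either list passed the threshold, and 37.5% of all probe sets were above 0 in PFC. Modafinil array 3 was the highest of its group in both lists. Without it 52 probe sets and 0 potassium channel genes passed (0 to 62 probe sets over the 16 arrays left out in turn), and Kcns2 was at -0.21 (adjusted p = 0.128). The G protein-gated genes were at differences of -0.034 (Kcnj3), 0.067 (Kcnj6) and 0.035 (Kcnj9).

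**Figure D5:**
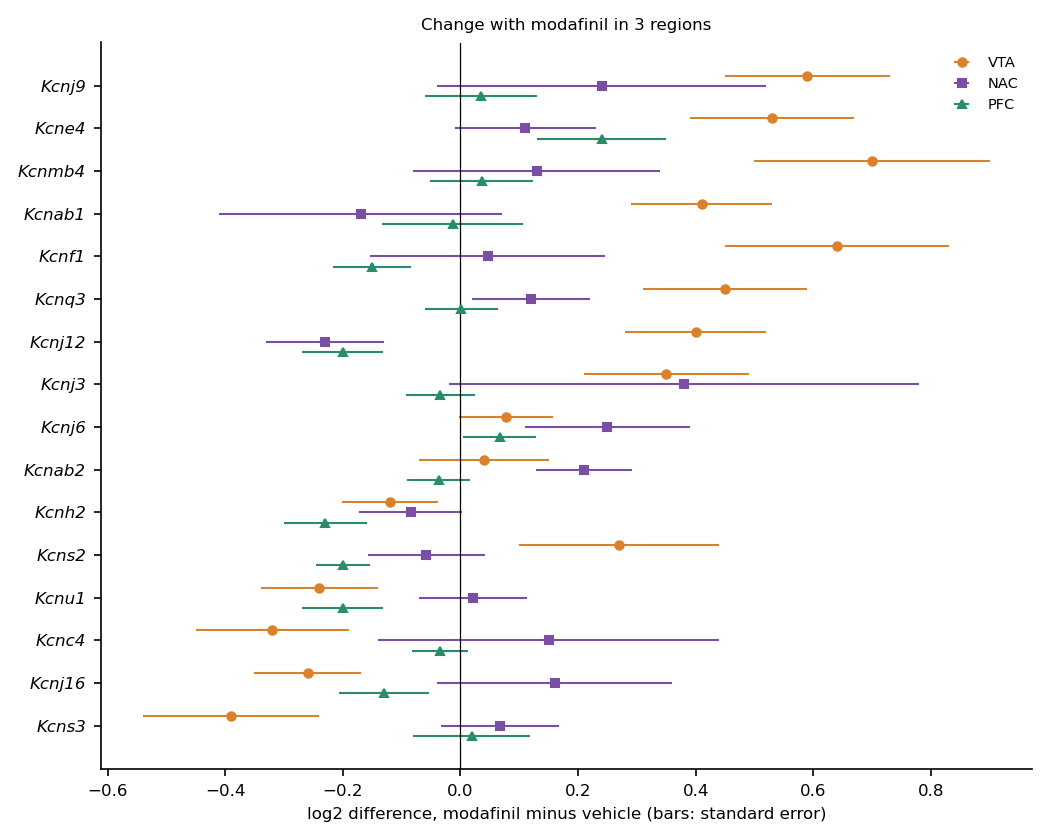
Log2 difference of modafinil minus vehicle (x axis) with its standard error for 16 potassium channel genes in VTA (circles), NAC (squares) and PFC (triangles). Kcnj12 lies right of 0 in VTA (0.40) and left of it in NAC (-0.23) and PFC (-0.20), and the NAC bar of Kcnj3 (SE 0.40) is the widest.

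The modafinil minus vehicle difference was then compared between the regions in 1 fit of 36 arrays. Kcnj12 was the 1 of 60 tested genes whose difference was unlike in VTA and PFC (0.60, SE 0.14, adjusted p = 0.0193), where 0.903% of all probe sets did. It was at 7.84, 7.42, 7.91, 7.61 and 7.36 in modafinil VTA against 7.06, 6.99, 7.29, 7.49 and 7.34 in vehicle VTA (0.40). In PFC it was at 7.34, 7.54 and 7.75 (lowest, median and highest) in modafinil mice against 7.50, 7.73 and 7.98 in vehicle mice (-0.20). The groups overlapped in both regions, and neither difference passed the threshold in the fit of its own region; in the fit of all 36 arrays the VTA difference did (adjusted p = 0.0302). The call was lost without vehicle VTA array 1 or 2 (adjusted p = 0.0554 and 0.0602) or modafinil VTA array 1 or 3 (0.0693 and 0.0563). Between VTA and NAC the difference for Kcnj12 was 0.63 (SE 0.15, adjusted p = 0.054), and 0 of 60 genes passed, where 0.274% of all probe sets did. Kcnj12 passed there with quantile normalization (0.027), with array weights (0.0488), and without any 1 of 6 arrays (vehicle VTA 4 or 5, modafinil VTA 2 or 5, vehicle NAC 2 or modafinil NAC 5), with adjusted p down to 0.022. Kcnf1 was next against PFC (0.79, adjusted p = 0.0713), then Kcnq3 (0.45, adjusted p = 0.125). Against NAC the next were Kcnf1 (0.59, adjusted p = 0.337) and Kcns3 (-0.46, adjusted p = 0.349). Between NAC and PFC 0 of 60 genes passed, as did 0% of all probe sets (0 of 27022 in limma; 4.91% at an unadjusted p under 0.05), with Kcnab2 (0.25), Kcnk7 (-0.26) and Kcnu1 (0.22) nearest, each at adjusted p = 0.914. These contrasts share arrays and are not independent of each other. The 250 bases before a RefSeq start of Kcnj12 are shown as those of the gene with that call, at chr11:61065554-61065803 on the plus strand (GRCm38.p6, RefSeq). They hold no capitals because none of the 5 motifs above was found in them. The gene spans chr11:61022564-61073269, so this start lies inside the gene and not at its outer end.
Kcnj12: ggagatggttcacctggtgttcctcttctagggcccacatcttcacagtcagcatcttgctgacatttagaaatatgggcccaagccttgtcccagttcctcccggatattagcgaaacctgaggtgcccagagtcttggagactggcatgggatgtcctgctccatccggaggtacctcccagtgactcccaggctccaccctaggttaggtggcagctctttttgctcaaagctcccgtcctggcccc

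In the modafinil comparisons, 0.259% of all probe sets passed the threshold in VTA, 0% in NAC and 0.0518% in PFC. Of the partner genes, Rgs6 was the 1 of those tested that passed in any of them. It encodes a regulator that shortens G protein signals to the inward rectifiers, and it was at 6.17, 6.43, 6.40, 6.15 and 6.20 in modafinil VTA against 6.87, 6.67, 6.90, 6.82 and 6.58 in vehicle VTA (-0.50, SE 0.083, adjusted p = 0.0462). The groups did not overlap. The call was lost without any 1 of 8 of the 10 arrays (adjusted p up to 0.108; it was kept without vehicle array 5 or modafinil array 3), with no filter (0.0734), with the replicate block (0.0635) and with the dopamine list as a covariate (-0.46, adjusted p = 0.523). No probe set of the array passed with no filter, with the block or with the covariate. Rgs6 was 1 of 4 tested GIRK regulators, and no partner gene of the other lists passed in VTA, NAC or PFC.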

How the data were processed

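RNA of 36 tissue punches was measured on Affymetrix Mouse 430_2 arrays. The deposited log2 values were made by the authors with RMA, per the submitters' processing notes, which name no version. Per the labels, RNA of the pieces of a mouse sample with an RNA integrity number above 7 was pooled before labelling, and samples below 7 were not pooled.

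Control probe sets were dropped. Each comparison was fitted with limma 3.58.1 in R 4.3.3 (lmFit, eBayes) on the arrays of its own groups, and differences of the modafinil change between regions on all 36 arrays. Dim probe sets (mean below the 40th percentile) were left out, with Benjamini-Hochberg adjustment over all 27022 and a threshold of 0.05. The fit was tested on simulated data. Array signal and the number of arrays limit the precision.

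Named between NAC and VTA are the 10 largest called differences a direction, and in the modafinil comparisons the 5 smallest p a direction (3 for the differences between regions), with a list of genes of known roles; other tested genes of the classes were added. The members and lists were chosen with earlier results of these data known. Alternatives were other filters, quantile normalization, trend and robust moderation, array weights, 1 or the mean probe set a gene, a replicate block, all arrays in 1 fit, a dopamine list covariate and leaving out each array.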

Additional observations from a re-analysis of the deposited data

Results flagged for a closer look

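In a group of 5 or 8 arrays, an array was picked out where its gap to the nearest other array was large against the range of the group (Dixon's 95% criterion, which chance meets in about 1 of 20 groups). Of 179 pairs of a gene and a group, 15 met it. Their arrays are named by replicate number.

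Modafinil VTA array 1 was the outlying array for 4 genes. It was high for Kcnab1 (10.00, next 9.50), Kcnj3 (9.86, next 9.28) and Kcnmb4 (9.53, next 9.08), and low for Kcnc4 (8.65, next 9.08). In modafinil VTA array 2, Kcnj9 was low, at 8.69 with the next at 9.10.

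In vehicle VTA, array 4 was high for Kcnma1 (10.55, next 9.30) and Kcnd2 (10.95, next 10.36). Array 2 was low for Kcna4 (8.22, next 8.36) and high for Kcnh2 (9.32, next 9.06), and array 5 was high for Kcnab1 (9.43, next 9.10).

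In NAC, vehicle array 5 was high for Kcnd1 (7.65, next 7.51) and vehicle array 2 high for Kcnip3 (8.52, next 8.28). In PFC, modafinil array 1 was high for Kcna7 (7.86, next 7.57). Vehicle PFC array 2 was high for Kcne4 (8.07, next 7.65) and vehicle PFC array 4 high for Kcnh2 (9.33, next 8.93).

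The change of Kcnj12 with modafinil differed between VTA and PFC by 0.60 on the log2 scale in limma's contrast of 36 arrays (adjusted p = 0.0193).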

How the results depend on the processing

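The number of probe sets called moved by over 1.5 times as follows. Between NAC and VTA it was 15279, with 24512 without a filter and 6322 with 1 probe set per gene. For modafinil in VTA it was 70, with 0 without a filter, 291 with the 60th percentile filter, 262 with quantile normalization, 241 with trend and robust moderation, 704 with array weights, 940 with all 36 arrays in 1 fit, 0 with the dopamine covariate and 0 with the replicate block. In PFC it was 14, with 4 under the 60th percentile filter, 0 with trend and robust moderation, 61 with array weights, 36 with all arrays in 1 fit and 0 with the replicate block. For the difference of the change it was 74 between VTA and NAC, with 166 under quantile normalization and 534 with array weights. Between VTA and PFC it was 244, with 584 with array weights, and between NAC and PFC 0, with 6 with array weights. The cause was not tested.

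Potassium channel genes called between NAC and VTA stayed within 1.5 times of 41 in all alternatives run, and 38 of the 41 kept the call in each one that tested them; the exceptions were Kcnd3, Kcnk7 and Kcnn2. For modafinil in VTA the count was 0, with 1 with quantile normalization, 2 with array weights, 1 with the mean of probe sets and 5 with all 36 arrays in 1 fit; in PFC it was 0, with 1 with array weights; in NAC it was 0 in all run. For the difference between VTA and NAC it was 0, with 1 under quantile normalization and 2 with array weights. Between VTA and PFC it was 1, with 2 without a filter, 0 with the 60th percentile filter (which did not test Kcnj12), 3 with quantile normalization and 4 with array weights.

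Leaving out 1 array gave 13866 to 15491 probe sets and 39 to 42 potassium channel genes between NAC and VTA. With modafinil the probe sets called ran from 0 to 172 (VTA), 0 to 1 (NAC) or 0 to 62 (PFC), with 0 potassium channel genes in each. For the differences of the change it gave 46 to 177 probe sets and 0 to 1 genes (VTA and NAC), and 116 to 310 probe sets and 0 to 2 genes (VTA and PFC).

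Signs turned for differences that were small on the probe set used. Between NAC and VTA, with the mean of probe sets, Kcnab2 was at 0.07, Kcnma1 at 0.43, Kcnj9 at 0.045 and Kcnq1ot1 at -0.093. Kcnt1 was at 0.27 in that fit and passed the threshold (adjusted p = 0.0112). The 4 other tested probe sets of Kcnq1ot1 ran from -1.18 to 0.39, and 1 passed in each direction. Kcnma1 was at 0.045 with array weights, and with quantile normalization Kcnn1 was at -0.06 and Kcna7 at -0.067. Without 1 array, Kcnab2 ran from -0.13 to 0.032, Kcnma1 from -0.16 to 0.22, Kcnj6 from -0.13 to 0.029, Kcnt1 from -0.095 to 0.016, Kcnn1 from -0.077 to 0.10, Kcna7 from -0.094 to 0.075, Kcnj9 from -0.25 to 0.10 and Kcnj3 from -0.27 to 0.14. For modafinil in VTA with the dopamine covariate, Kcns3 was at 0.086, Kcnj5 at -0.29 and Kcnd3 at 0.016, and Kcnj5 ran from -0.12 to 0.37 without 1 array. In PFC, Kcnj3 was at 0.0019 with array weights and Kcnj9 at -0.0052 with the mean of probe sets, and without 1 array they ran from -0.058 to 0.0081 and from -0.015 to 0.10. The 17 genes below the percentile in each comparison were tested only without a filter; no background signal was given.

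Replicate numbers are not stated to pair arrays. The deviations of same-numbered arrays correlated at 0.0142 to 0.247 between NAC and VTA, and from -0.526 to 0.267 in the modafinil comparisons, and no comparison had every array correlate best with its own number. With the number as a block, Kcnmb2 passed between NAC and VTA (-0.23, adjusted p = 0.02).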
